A study of Mus musculus with 6 samples.

Results

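The 10 genes described here encode proteins that bind calcium, membranes or sugars and, with Vim, an intermediate filament protein: S100a4, S100a6, S100a10, S100a11, S100a13, Anxa1, Anxa2, Lgals1, Lgals3 and Vim. They were taken by symbol, so that 10 of the 32285 rows of the count table are covered. The choice of these symbols was made with earlier results of these data known. All 10 passed the filter on low counts, which left 17307 genes for testing. The libraries were made from regulatory T cells (Tregs), sorted as CD4+CD25+ cells from the spleen of C57BL/6 mice, with 3 WT and 3 KO libraries sequenced as bulk RNA. The KO libraries came from mice labelled ERCre+Zfp335f/f and the WT libraries from wild-type littermates. By the methods of the study, WT mice carried ERCre without the floxed Zfp335 alleles, and both groups received tamoxifen at 6 weeks of age as 3 injections of 100 μL at 10 mg/mL, with tissue taken on day 7. ERCre joins Cre recombinase to a modified estrogen receptor, and tamoxifen switches it on in every cell type that carries it, so the deletion was not restricted to Tregs. The labels themselves do not mention tamoxifen, and no source used here says whether each library came from a separate mouse. The p-values below therefore measure the spread between these libraries, which may be technical.

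S100 proteins are small EF-hand proteins that bind calcium and then attach to partner proteins, among them annexins, which bind phospholipid membranes in a calcium-dependent way. Galectins bind beta-galactoside sugars on surface glycoproteins, and vimentin forms intermediate filaments that give a cell its stiffness and anchor its organelles. In T cells these transcripts are known to be more abundant in activated, memory and effector cells than in resting cells, and several of them are also abundant in macrophages and neutrophils.

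Promoter sequence is shown for the 5 members that were at least 1.5-fold lower in KO libraries (S100a4, S100a6, Anxa1, Anxa2 and Lgals3), because these carry the largest fold changes described below. Each run is the coding strand, 5′ to 3′, from 250 bases before to 50 bases after the RefSeq start on the mouse assembly GRCm38.p6, and capitals mark the motif matches found in it. The S100a4 window was chr3:90603520-90603819 and the S100a6 window chr3:90612644-90612943, both on the plus strand. The Anxa2 window was chr9:69453433-69453732 and the Lgals3 window chr14:47373610-47373909, also on the plus strand. The Anxa1 window was chr19:20390622-20390921 on the minus strand.
S100a4: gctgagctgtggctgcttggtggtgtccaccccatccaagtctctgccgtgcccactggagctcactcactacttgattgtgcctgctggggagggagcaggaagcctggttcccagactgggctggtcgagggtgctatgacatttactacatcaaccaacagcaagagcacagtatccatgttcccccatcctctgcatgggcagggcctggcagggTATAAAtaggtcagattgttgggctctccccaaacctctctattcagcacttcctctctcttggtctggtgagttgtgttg
S100a6: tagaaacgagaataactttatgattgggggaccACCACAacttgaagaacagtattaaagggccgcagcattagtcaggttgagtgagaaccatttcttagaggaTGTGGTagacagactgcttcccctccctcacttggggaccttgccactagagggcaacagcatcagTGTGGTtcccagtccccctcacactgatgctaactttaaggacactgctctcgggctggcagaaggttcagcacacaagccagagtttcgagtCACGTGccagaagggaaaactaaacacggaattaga
Anxa1: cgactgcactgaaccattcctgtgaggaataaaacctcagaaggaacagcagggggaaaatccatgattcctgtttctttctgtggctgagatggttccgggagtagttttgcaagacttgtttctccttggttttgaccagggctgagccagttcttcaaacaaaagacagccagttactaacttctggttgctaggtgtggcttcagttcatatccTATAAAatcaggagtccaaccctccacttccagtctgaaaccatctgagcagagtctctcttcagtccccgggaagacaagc
Anxa2: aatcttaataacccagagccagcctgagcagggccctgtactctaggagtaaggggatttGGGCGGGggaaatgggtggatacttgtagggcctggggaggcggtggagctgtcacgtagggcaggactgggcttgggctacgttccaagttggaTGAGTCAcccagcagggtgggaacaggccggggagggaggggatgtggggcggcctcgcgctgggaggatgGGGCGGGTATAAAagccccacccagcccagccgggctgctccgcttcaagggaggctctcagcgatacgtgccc
Lgals3: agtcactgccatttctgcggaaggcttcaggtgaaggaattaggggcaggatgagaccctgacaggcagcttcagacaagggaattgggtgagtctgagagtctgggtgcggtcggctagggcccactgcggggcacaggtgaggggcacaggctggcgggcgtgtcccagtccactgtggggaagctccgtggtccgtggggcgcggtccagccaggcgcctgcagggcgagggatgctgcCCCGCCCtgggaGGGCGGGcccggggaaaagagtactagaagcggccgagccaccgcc

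RefSeq windows were at hand for 8 of the 10 members; S100a10 and Lgals1 are named only. A TATA box, searched as TATAAA on both strands, lay in 4 of these 8 windows, against 13.6% of all 32851 windows of the same length. Its first base was at -31 in S100a4, -32 in Anxa1, -17 in Anxa2 and -32 in Vim, counted from 0 at the annotated start. The GC box GGGCGGG was present in 3 of 8 windows (25.6% of all windows), namely Anxa2, Lgals3 and S100a11, and in Anxa2 it directly adjoined the TATA box. The AP-1 site TGANTCA was found in 2 of 8 (7.81%), those of Anxa2 and S100a11, and the E-box CACGTG in 2 of 8 (7.15%), those of S100a6 and S100a11. The RUNX site TGTGGT occurred 3 times in the S100a6 window and in no other of the 8 (16.8%), and the STAT site TTCNNNGAA in 0 of 8 (8.3%). The S100a13 window, from a member that did not pass the test, held none of the 6 motifs. No motif was thus shared by all of the genes that were lower, and a match is only a description of letters in this window.

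The deleted gene checked the labels. Zfp335, a zinc finger transcription factor, was measured at 124.4, 120.7 and 115.2 CPM (a gene's counts relative to its library's total, scaled by the trimmed mean of M-values) in the WT libraries and at 14.96, 14.27 and 15.12 CPM in the KO libraries. Every KO library was far below every WT library (log2 fold change, KO against WT, -3.02, SE 0.046, edgeR adjusted p = 1.2e-13). Total counts ran from 133283969 to 209041812 per library. Foxp3, the transcription factor that defines Tregs, stood at 1140 CPM in WT and 1050 CPM in KO libraries. Xist, the RNA that coats the inactive X of female cells, was at a mean of 0.272 CPM in WT and 134.6 CPM in KO libraries. The groups thus also differed in a transcript tied to sex, and the sex of the mice is not given in the sources used here. A difference in sex between the groups and the Zfp335 deletion cannot be told apart in the KO against WT results below.

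Of the 10 genes, 8 fell in KO libraries and 0 rose at an adjusted p under 0.05 in edgeR's quasi-likelihood test. Across all 17307 genes tested, 12.1% were lower and 12.0% higher by the same rule, and 14.8% were lower among the 11078 genes whose average log2 CPM was 1 or more. Scaling by library size alone gave 61.4% lower calls among all calls in place of 50.1%. The cutoffs that the study states for a related experiment in Foxp3Cre mice (a change of 1.5-fold or more, p under 0.05, adjusted p under 0.1) were met by 5 members, all lower, against 4.37% of all genes. In 9 of the 10 the highest KO library was lower than the lowest WT library, which held for 19.1% of all genes. The median log2 fold change of the 10 was -0.573, beside -0.0042 over all genes, and their summed level went from 1611 to 1199 CPM. In bulk RNA a smaller share of cells that express these genes and less RNA per cell cannot be told apart.

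**Figure D1:**
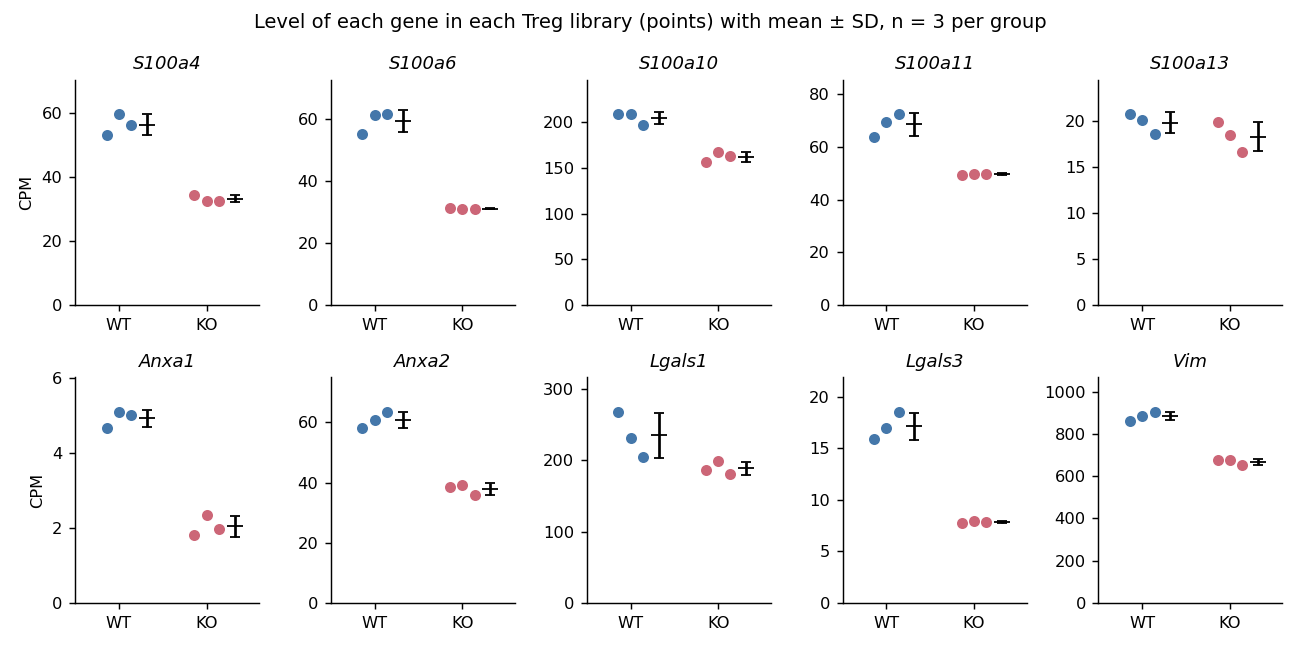
Levels of the 10 genes in CPM (vertical axes, each from 0), with 3 WT and 3 KO libraries per gene as points and the mean ± SD of each group beside them. KO points lie below all WT points in 9 genes, and the groups overlap in S100a13.

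S100a6 and S100a4 fell most among the S100 members. S100a6, also called calcyclin, which binds the ubiquitin ligase adaptor Cacybp, was at 55.34, 61.33 and 61.63 CPM in WT libraries and at 31.39, 31.14 and 31.04 CPM in KO libraries. The KO libraries were almost identical to each other and the groups were well apart. The mean went from 59.4 ± 3.55 to 31.2 ± 0.178 CPM (SD, n = 3 each), a log2 fold change of -0.93 (SE 0.048, edgeR adjusted p = 2.02e-08). S100a4, which binds non-muscle myosin and is tied to cell motility, read 53.33, 59.77 and 56.23 CPM in WT against 34.48, 32.47 and 32.73 CPM in KO libraries. Here too the lowest WT library was clearly above the highest KO library. Its level fell by 41.2% (log2 fold change -0.77, SE 0.049, edgeR adjusted p = 1.39e-07). Of the 50-base stretches in the S100a4 exons, 47.4% also occur in Gm42674, which overlaps it on the same strand. Gm42674 has no row under that symbol in the counts, so the genes cannot be told apart in those stretches.

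The other S100 members changed less. S100a11, an S100 protein that pairs with annexin A1 and acts in membrane repair, was at 63.84, 69.27 and 72.34 CPM in WT and 49.12, 49.71 and 49.73 CPM in KO libraries. No KO library reached a WT library, and its level fell by 27.6% (log2 fold change -0.47, SE 0.046, edgeR adjusted p = 8.66e-06). Of its 50-base stretches, 41.1% are shared with the pseudogene Gm12854, which has no row under that symbol in the counts. How the authors' counting placed such reads therefore bears on the level of S100a11. S100a10, which unlike most of its family does not respond to calcium and holds annexin A2 in a tetramer, was the most abundant S100 gene at 208.5, 208.3 and 197 CPM in WT and 155.8, 166.7 and 162.4 CPM in KO libraries. The groups did not overlap, and its mean fell by 21% (log2 fold change -0.34, SE 0.037, edgeR adjusted p = 2.07e-05). S100a13, which takes part in the release of proteins that lack a signal peptide, read 20.69, 20.05 and 18.5 CPM in WT and 19.82, 18.39 and 16.59 CPM in KO libraries. These overlap, and the log2 fold change of -0.12 had a 95% interval from -0.27 to 0.03 (edgeR adjusted p = 0.248).

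The 5 S100 members lie in 2 places on chromosome 3 of the GRCm38 build (GENCODE M21). S100a13 (90514435-90524581), S100a4 (90603771-90606045) and S100a6 (90612882-90624181) are in the S100 gene cluster, whereas S100a11 (93520488-93526287) and S100a10 (93555080-93564643) form a separate pair further along the plus strand. The starts of S100a4 and S100a6 are 9.1 kb apart, while S100a13, which did not pass the test, begins 89.3 kb before S100a4. The S100a11 start lies 34.6 kb before that of S100a10 and 2907.6 kb after that of S100a6. Of the other S100 genes within 100 kb of S100a4, S100a1, S100a3 and S100a14 did not pass the test. Their WT means were low, at 1.04, 0.666 and 0.128 CPM, and their intervals wide (S100a14 from -3.13 to 0.327), so this does not show them unchanged. Chtop, a chromatin protein gene that starts at -94.27 kb from S100a4, had a log2 fold change of -0.03 (edgeR adjusted p = 0.512). S100a8 and S100a9, the subunits of the neutrophil protein calprotectin, begin 56.1 and 82.8 kb after S100a6.

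**Figure D2:**
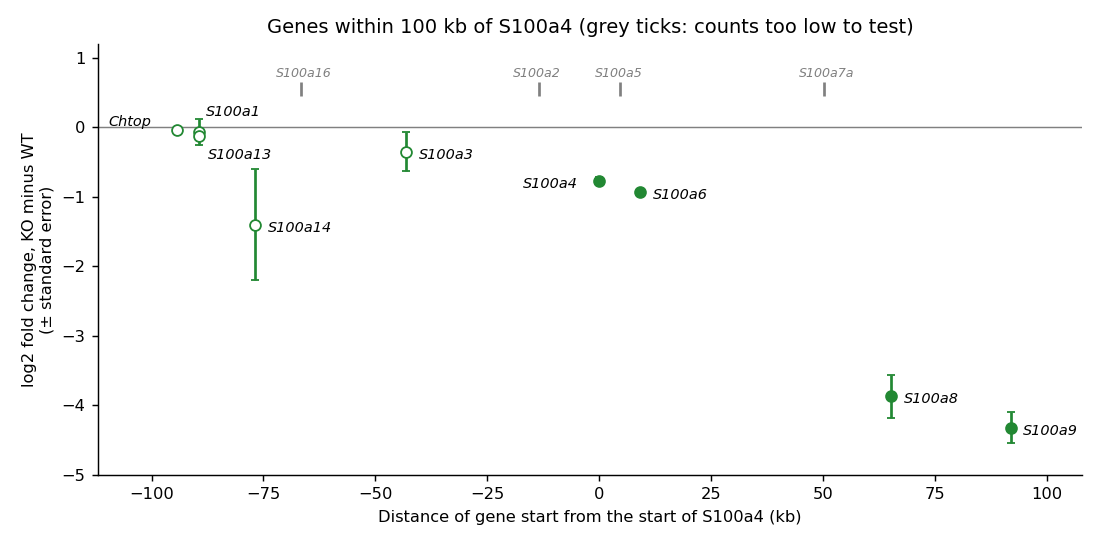
Log2 fold change (KO against WT, points, with standard errors as bars, filled where the edgeR adjusted p was under 0.05) of the tested genes within 100 kb of S100a4 against the distance of each start from that of S100a4, in kb. S100a4 and S100a6 sit at -0.77 and -0.93, S100a8 and S100a9 far lower at -3.87 and -4.32, and S100a13 and Chtop near 0. Grey ticks are genes with too few counts to test.

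Both annexin members were lower in KO libraries, the less abundant of them by more. Anxa1, a glucocorticoid-induced annexin that acts through formyl peptide receptors to damp inflammation, was measured at 4.683, 5.108 and 5.016 CPM in WT and 1.823, 2.358 and 1.968 CPM in KO libraries. KO libraries were all under the lowest WT library, and Anxa1 had the largest fold of the 10, 2.39-fold lower (log2 fold change -1.26, SE 0.115, edgeR adjusted p = 3.99e-06). Anxa1 (chr19, 20373428-20390944, minus strand) lies within the lincRNA 1500015L24Rik on the opposite strand, which is listed at 0 counts in all libraries. Anxa2 (chr9, 69453620-69491795), which binds actin and membranes and is the partner of S100a10, read 58.24, 60.77 and 63.52 CPM in WT and 38.59, 39.36 and 35.77 CPM in KO libraries. Its groups did not overlap either, and its mean fell by 37.6% (log2 fold change -0.68, SE 0.048, edgeR adjusted p = 3.44e-07). The antisense gene Gm16144 within Anxa2 was at 0.0964 CPM in WT and 0.0385 CPM in KO libraries. Whether the counting of these libraries used strand is not given in the sources used here, so reads of a gene and of its antisense partner may not have been separated.

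The galectins split by their test. Lgals3, the chimera-type galectin that can link glycoproteins such as CD45 and LAG3 into lattices, was at 15.88, 16.96 and 18.53 CPM in WT and 7.744, 7.922 and 7.888 CPM in KO libraries. Again the KO libraries were nearly identical and every WT library was above them, with a 2.17-fold lower mean (log2 fold change -1.12, SE 0.07, edgeR adjusted p = 1.05e-07). Lgals1, a galectin that Tregs produce and that can kill or restrain effector T cells, read 268, 231.6 and 205.3 CPM in WT and 186.9, 199.1 and 180.2 CPM in KO libraries. The groups did not overlap, but the WT libraries were widely spread, with a coefficient of variation of 13.4%. Lgals1 did not pass the test (log2 fold change -0.32, 95% interval -0.56 to -0.07, edgeR adjusted p = 0.0725). Left out of the fit, WT replicate 1 brought it past the threshold at a log2 fold change of -0.21 (edgeR adjusted p = 0.031) and WT replicate 3 at -0.40 (0.00146), and it also passed with all libraries in DESeq2 (-0.32, adjusted p = 0.0411) and limma-voom (-0.31, 0.0161).

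Vim (chr2, 13573927-13582826), the vimentin gene, had by far the highest level, with 863.1, 885.6 and 904.6 CPM in WT and 675.6, 678 and 650.7 CPM in KO libraries. WT and KO libraries were separated by a wide gap relative to the spread within groups, and the mean fell by 24.5% (log2 fold change -0.41, SE 0.033, edgeR adjusted p = 1.27e-06). In CPM the Vim difference of -216 was larger than those of Lgals1 (-46.2), S100a10 (-43), S100a6 (-28.2), S100a4 (-23.2), Anxa2 (-22.9) and S100a11 (-19), while Lgals3 at -9.27 and Anxa1 at -2.89 were among the smallest despite their folds. The genes with the largest folds were thus not those with the largest differences in CPM. In an exact permutation test of a single gene, 3 against 3 libraries cannot go below p = 0.1, the value that every member but S100a13 (two-sided exact p = 0.2) reached.

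**Figure D3:**
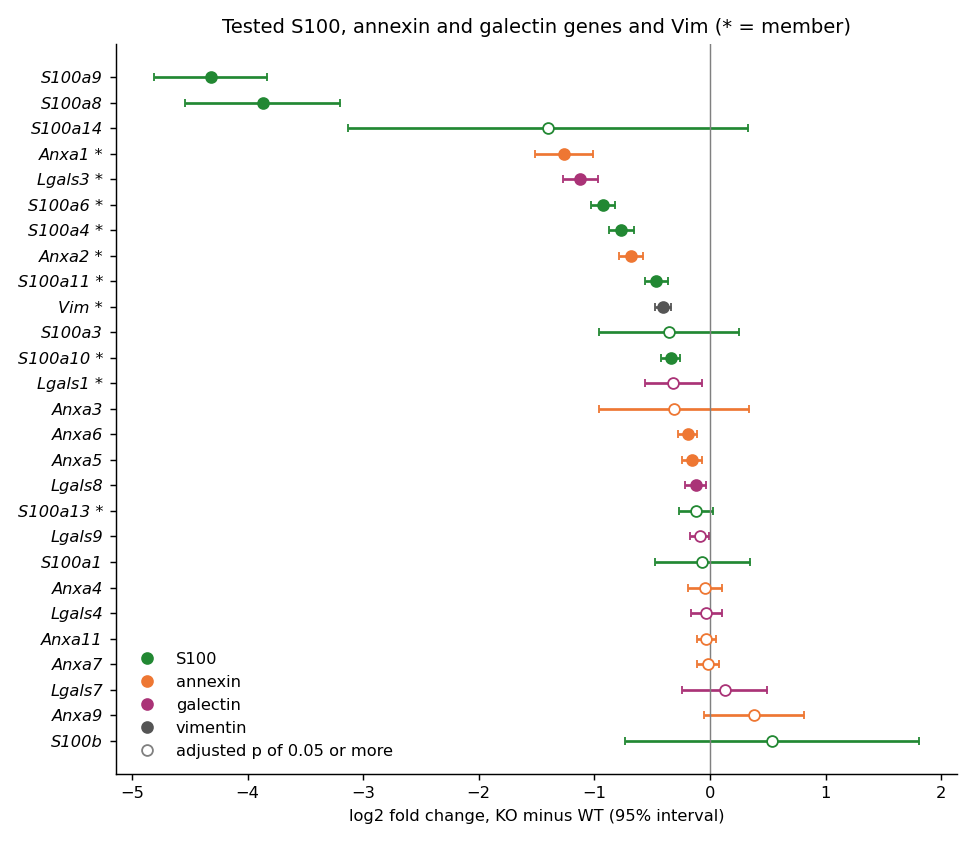
Log2 fold changes (KO against WT) of the S100, annexin and galectin genes tested and Vim, with 95% intervals, filled by whether the edgeR adjusted p was under 0.05. Anxa1 and Lgals3 lie furthest from 0 among the 10 members, at -1.26 and -1.12.

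**Figure D4:**
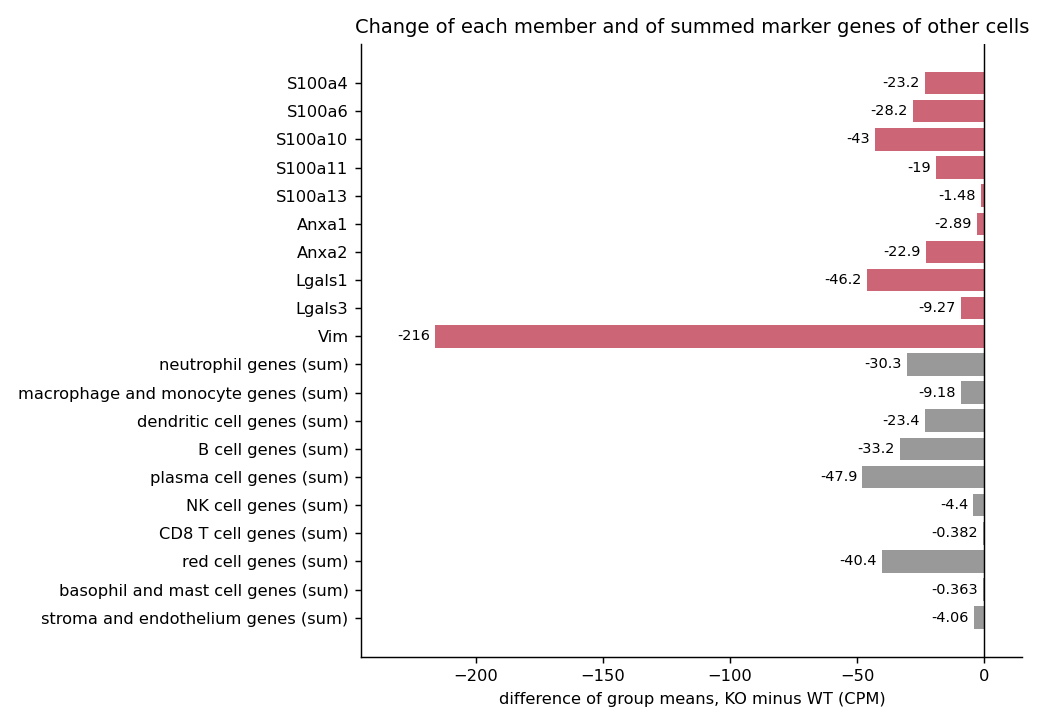
Difference in mean CPM, KO minus WT, of each of the 10 genes and, in grey, of the summed markers of other cell types. Vim differs by -216 CPM, the remaining genes by -46.2 to -1.48 CPM, and plasma cell markers by -47.9 CPM.

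To compare levels between genes, CPM was divided by the length of the merged exons. On this scale of CPM per kilobase the WT order was Vim (403.3), Lgals1 (293.7), S100a10 (255.1), S100a11 (134), S100a4 (113.3), S100a6 (73.46), Anxa2 (42.05), S100a13 (27.62), Lgals3 (10.78) and Anxa1 (2.607). The libraries of Lgals1 and S100a10 overlapped and these neighbours did not differ beyond their spread, while every other pair of neighbours was apart. The same order held in KO libraries, where Vim was at 304.7 and Anxa1 at 1.083 CPM per kilobase, and there the ranges of Anxa2 and S100a13 overlapped. Dividing by length moved S100a4, a short gene, from rank 7 in CPM to rank 5, and Anxa2 from rank 5 to rank 7.

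**Figure D5:**
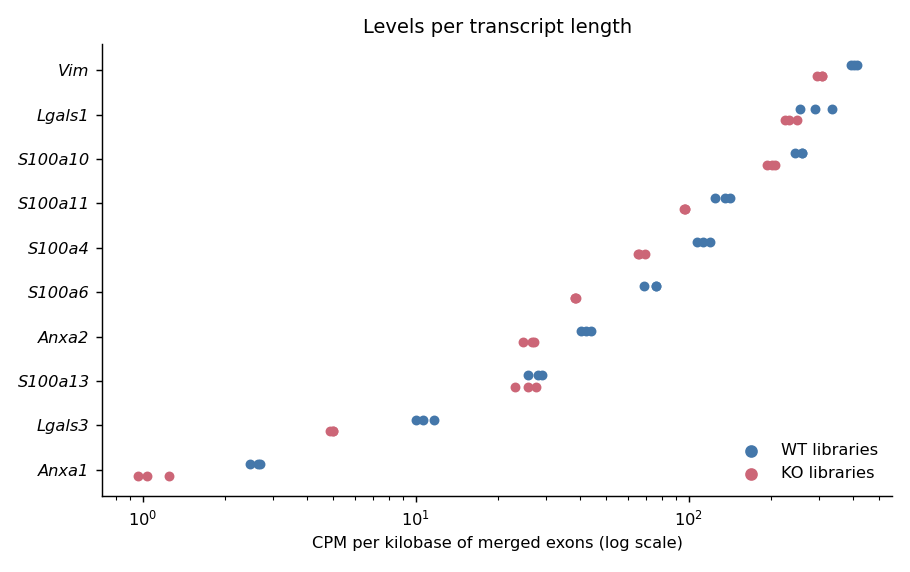
Level of each of the 10 genes in CPM per kilobase of merged exons (log axis) in every WT and KO library. Vim is highest at 403.3 in WT libraries and Anxa1 lowest at 2.607.

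Because S100a10 and Anxa2 are subunits of 1 tetramer, and S100a11 binds Anxa1, the log2 ratios of these partners and of the galectin and the neighbouring S100 pairs were set out per library. The log2 ratio of S100a10 to Anxa2 was 1.84, 1.78 and 1.63 in WT and 2.01, 2.08 and 2.18 in KO libraries, a shift of 0.343 toward S100a10. That of S100a11 to Anxa1 rose from a mean of 3.79 to 4.60, by 0.805. Lgals3 to Lgals1 moved from -3.77 to -4.58. S100a4 to S100a6 went from -0.0742 to 0.0908, so S100a6 fell by slightly more than S100a4. In all 4 ratios the KO and WT libraries did not overlap, with an exact permutation p of 0.1, the smallest that 3 against 3 libraries allow, and 0.1 after Benjamini-Hochberg adjustment over the 4.

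The families as a whole followed the members only in part. The table holds 17 S100 genes, of which 11 were tested, and 6 were lower and 0 higher. Besides the members these were S100a8 (2.03 to 0.135 CPM, log2 fold change -3.87, edgeR adjusted p = 1.22e-06) and S100a9 (3.94 to 0.199 CPM, -4.32, 2.5e-08), both at low levels. These genes are known for their abundance in neutrophils and are in the neutrophil list below, and which cells their reads came from was not tested. The paper reports high S100a8 and S100a9 in a Treg cluster that it calls dysfunctional, which accumulated in neonatal Foxp3Cre KO mice. That model and age differ from those here, where both genes were lower in KO libraries. Among 9 annexins tested 4 were lower, adding Anxa6 (605.7 to 529.6 CPM, -0.19, edgeR adjusted p = 0.00207), a large membrane-binding annexin, and Anxa5 (64.25 to 57.6 CPM, -0.16, 0.0116), which binds phosphatidylserine. Anxa5 lost its call without WT replicate 2 (edgeR adjusted p = 0.0634) or KO replicate 3 (0.0708). Anxa4, Anxa7, Anxa11, Anxa3 and Anxa9 did not pass. Of 6 galectins tested 2 were lower, Lgals3 and Lgals8 (58.26 to 53.43 CPM, -0.12, edgeR adjusted p = 0.0447), and Lgals8 lost its call in 7 of 17 alternatives. Lgals9 at -0.09 and Lgals4 at -0.03 did not pass.

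Genes whose products these proteins bind or act with were listed as partners and ligands, and 25 of 26 could be tested, of which 7 were lower and 2 higher. Itgb4, an integrin beta chain that anchors to intermediate filaments, fell from a low level (1.1 to 0.462 CPM, log2 fold change -1.30, edgeR adjusted p = 0.00295). Spn, the sialomucin CD43 that galectin-1 binds, also fell (544 to 436 CPM, -0.32, edgeR adjusted p = 5.36e-06). Lag3, a surface receptor that galectin-3 binds, rose by 0.518 and Mgat5, which builds the branched glycans that galectins bind, by 0.392 (edgeR adjusted p = 2.39e-06 and 1.86e-05). The partners named next were picked after their values were seen. Cacybp, the S100a6 partner, fell from 81.6 to 66 CPM (-0.30, edgeR adjusted p = 0.00454). Myh9, the myosin heavy chain that S100a4 binds, was at 3010 and 2900 CPM, and Ahnak, a scaffold bound by the S100a10 and Anxa2 complex, at 705 and 628 CPM in WT and KO libraries. Neither passed (edgeR adjusted p = 0.425 and 0.174).

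Of 30 calcium-sensor and cytoskeleton genes 20 were lower and 2 higher, with a median log2 fold change of -0.163. Actb, encoding beta-actin, had the largest decrease (2720 to 1890 CPM, log2 fold change -0.52, edgeR adjusted p = 2.49e-07), followed by Vcl, the adhesion protein vinculin (-0.40, 0.0283), and Actg1, encoding gamma-actin (-0.39, 2.17e-05). Lmna, the nuclear lamin A/C gene, rose by 0.472 (edgeR adjusted p = 9.11e-06). Of 30 genes known for effector Tregs, 11 were lower and 9 higher with a median of -0.0413, so that this list showed no common direction as the members did. The extremes were Il10 (19.8 to 37.7 CPM, 0.93, edgeR adjusted p = 3e-08), Areg (8.38 to 15 CPM, 0.84, 1.06e-06) and Ccr8 (25.6 to 39.3 CPM, 0.62, 7.2e-07), which rose, and Ccr2, a chemokine receptor (55.7 to 35.1 CPM, -0.67, 2.38e-06), which fell. Of markers that the paper used for effector Tregs, Icos (273 to 235 CPM, -0.21, edgeR adjusted p = 0.00152) and Cxcr3 (38.3 to 27.3 CPM, -0.49, 1.71e-05) fell. Nrp1 did not pass (-0.01, edgeR adjusted p = 0.904). Icos, Cxcr3 and Nrp1 were named after their values were seen. The paper also gives the members S100a4 and S100a6, outside the list used here, as more enriched in its effector Treg cluster. Both were lower in KO libraries, as described above.

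Markers of some other cell types fell with the members, while those of others did not. Their part in the members' differences was not tested. All 8 B cell genes, all 8 red cell genes and 12 of 14 neutrophil genes were lower in KO libraries. The summed neutrophil markers ran from 33.7 to 41.5 CPM in WT and from 6.18 to 7.6 CPM in KO libraries. The summed red cell markers ran from 38.6 to 45.6 CPM in WT and from 2.06 to 2.42 CPM in KO libraries, and B cell markers from 55.6 to 60.7 and from 24.3 to 26.5 CPM. These groups did not overlap. Plasma cell markers ran from 86.1 to 91.3 CPM in WT and from 39 to 41.8 CPM in KO libraries, with 2 of 4 lower. Dendritic cell markers ran from 94.5 to 99.5 and from 72.8 to 73.8 CPM, with 6 of 9 lower. Igha made up most of the plasma cell sum, at means of 72.3 CPM in WT and 32.5 CPM in KO libraries. Cst3 (49.6 and 48.1 CPM) and H2-Ab1 (37.5 and 19.3 CPM) made up most of the dendritic cell sum. Among 15 macrophage and monocyte genes, cells that carry several of the members, 4 were lower and 5 higher, and the sums were 71.9 to 75.6 CPM in WT and 61.5 to 66.2 CPM in KO libraries. The higher count went from 5 to 3 without WT replicate 2, KO replicate 1 or KO replicate 3. Lyz2, the lysozyme of macrophages and neutrophils, fell from 19.7 to 7.36 CPM (log2 fold change -1.43, edgeR adjusted p = 1.02e-07). Cd14, the lipopolysaccharide co-receptor (1.32 to 0.426 CPM, -1.63, edgeR adjusted p = 0.00193), Itgam, an integrin of myeloid cells (-0.78, 1e-04), and Ly6c2, a monocyte surface protein (-0.35, 0.0038), also fell. Those that rose were Cd163, the haemoglobin scavenger receptor (1.06 to 1.74 CPM, 0.78, edgeR adjusted p = 0.0269), the complement genes C1qa (0.60, 0.00115), C1qb (0.68, 0.00163) and C1qc (0.43, 0.0156), and Hmox1, a haem-degrading enzyme (0.50, 0.000584). Ly6c2, the complement genes and Hmox1 were named after their values were seen. Natural killer markers had 2 of 5 lower, CD8 T cell markers 0 of 2 either way, basophil and mast cell markers 0 of 3, and stromal and endothelial markers 1 of 8 lower and 1 higher. Their summed levels in WT and KO libraries were 28.5 to 29.9 and 24.6 to 25.3 CPM for natural killer, 8.34 to 9.71 and 8.62 to 8.65 CPM for CD8 T cell, 0.587 to 0.83 and 0.23 to 0.564 CPM for basophil and mast cell, and 173 to 176 and 167 to 175 CPM for stromal and endothelial markers. Nearly all of the stromal and endothelial sum was Pecam1, at means of 170 CPM in WT and 166 CPM in KO libraries. No marker of these lists was at 0 in every library. The natural killer count was 1 without WT replicate 2 or KO replicate 3, the basophil and mast cell count 1 without WT replicate 3, and both stromal counts 0 without WT replicate 2 or KO replicate 1, with 0 lower without KO replicate 2. The summed markers differed, KO minus WT, by -47.9 CPM for plasma cell, -40.4 CPM for red cell, -33.2 CPM for B cell and -30.3 CPM for neutrophil genes. The 5 members with the largest folds differed by -28.2 CPM for S100a6 to -2.89 CPM for Anxa1, and Vim by -216 CPM. The size of a sum depends on which marker genes were listed. It therefore does not measure what such cells added to a member, which was not tested.

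The expression pattern of Anxa1, the member with the largest fold change, was set beside 11077 other genes across the 6 libraries, by the root mean square difference of log2 CPM after each gene was centred. Nearest were Dph6 at 0.105 (log2 fold change -1.20), Ankle2 at 0.106 (-1.29), Cd79a at 0.117 (-1.39), Mmp25 at 0.118 (-1.13) and Psmg2 at 0.118 (-1.27). Lgals3 was the closest of the other members, at rank 7 with 0.135. Across WT and KO libraries this distance depends largely on the size of the fold change. Nearness therefore does not show shared regulation or a shared cell source, which was not tested.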

How the data were processed

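The members, gene lists and tests were chosen with earlier results of these data known. The deposited counts of 32285 genes by 6 libraries were used as the authors gave them, as raw counts per gene, and no column was left unused. Submitters' notes name HISAT2, DESeq2 and the mouse build mm10 (GRCm38). For bulk RNA of Foxp3Cre Tregs, a separate experiment, the study's methods name StringTie and show no strand option. For the counts used here the counter, its strand setting and versions are not given in the sources used here. The 40 repeated symbols were kept as separate rows. Genes were filtered with filterByExpr, leaving 17307, and scaled by TMM (edgeR 4.0.16, R 4.3.3). WT and KO (n = 3 each) were compared by edgeR's quasi-likelihood test with robust fits and Benjamini-Hochberg adjustment, with calls at an adjusted p under 0.05. Intervals at 95% are from the t distribution of that fit. Ratios were tested by two-sided exact permutation over libraries on log2 CPM with a prior count of 2. Lengths, positions and overlaps come from GENCODE M21, and promoters from RefSeq GRCm38.p6. Total counts per library ran from 133283969 to 209041812, so counting error is small for all members but is not the spread between libraries. Same-numbered libraries were checked for pairing: the correlations of their deviations were 0.052, -0.00985 and -0.0274, which does not make them pairs. No 2 libraries agreed within sampling noise, since the median chi-square over 5732 genes was 5.92 to 8.27 times the sampling expectation within groups. Named genes of a list were taken from the 4 called ones with the largest absolute log2 fold change, apart from those marked as named after their values were seen. Alternatives were RLE, upper-quartile and no scaling, DESeq2 1.42.0, limma-voom 3.58.1, the legacy edgeR method, other filters, a block for the replicate number, fits without each library in turn, dropping abundant gene classes, and counts divided by 4. The scripts were tested on simulated data.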

Additional observations from a re-analysis of the deposited data

How the results depend on the processing

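The 8 genes that passed the test stayed lower and past the threshold in all 17 alternatives, the widest range being that of Anxa1, from -1.38 to -1.18 on the log2 scale. S100a13 ranged from -0.18 to -0.05 and passed in none. Lgals1 ranged from -0.40 to -0.21 and passed in 5, including the fit with the replicate number as a block (-0.309, edgeR adjusted p = 0.0143), where 9 members were lower; without the block it did not pass, and the block changed no other member's call. WT replicate 2 correlated best with KO replicate 3 and not with its own number. Over the libraries left out in turn, 1341 to 2495 genes were called higher, against 2082, with the lowest count without WT replicate 2 and 1386 without KO replicate 2. With a CPM of at least 1 in 3 libraries, 334 of 12110 genes passed the study's cutoffs in the lower direction, against 757 of 17307. The share that passed was thus also lower once genes with low counts were left out. Library size alone gave 2575 lower and 1622 higher calls, in place of 2088 and 2082. No scaling moved the median of all genes by over 0.1. The 4 ratios kept their direction in each alternative. With 3 libraries a group, an exact test of a single gene cannot fall under 0.1.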

Other observations

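Genes of resting Tregs and of Treg identity were not part of the comparison above. Of 12 resting genes 6 were higher and 2 lower in KO libraries, with Ccr7, the lymph node homing receptor, rising from 314 to 592 CPM (log2 fold change 0.91, edgeR adjusted p = 5.24e-10). Dapl1 fell from 5.64 to 4.01 CPM (-0.48, edgeR adjusted p = 0.00528). Of 8 Treg identity genes 2 were higher and 2 lower. Ctla4, a co-inhibitory receptor, rose from 410 to 645 CPM (0.65, edgeR adjusted p = 9.56e-09), while Foxp3 had a log2 fold change of -0.11 (0.0163) and Il2ra, the CD25 chain used in the sort, -0.15 (0.00658). The Treg identity counts were not steady: without KO replicate 2 they were 0 lower and 1 higher, and without KO replicate 1 or KO replicate 3 they were 1 and 1, and without WT replicate 2 there was 1 higher.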
